A study of Mus musculus with 2 samples.

Results

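The let-7 and miR-98 family was followed in helper (CD4+) T cells of the gut lamina propria and of the spleen. Its members were chosen by miRBase accession, as the array rows of let-7a-5p, let-7b-5p, let-7c-5p, let-7d-5p, let-7e-5p, let-7f-5p, let-7g-5p, let-7i-5p and miR-98-5p, and the rule itself uses no measured value, although the family was picked with earlier results of these data known. These were 9 of the 739 rows of the array. All 9 had a value on both arrays, as did 353 of the rows in all. The lamina propria, which is the connective tissue beneath the epithelium of the gut, was represented by 1 array of CD4+ T cells, and the spleen by 1 array of CD4+ T cells. The donors in both cases were C57BL/6 females, 10 weeks old and Il10 heterozygous (IL-10 +/-), so the 1 working copy of this anti-inflammatory cytokine gene was common to both tissues and no Il10 wild-type cells are compared here. The question was which miRNAs the cells of these tissues hold at different levels. Lamina propria cells were freed with collagenase and CD4+ T cells of both tissues were taken on magnetic beads, per the labels' protocols. Tissue and enzymatic dissociation therefore cannot be told apart. The number of mice behind each RNA is not stated in the labels.

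MicroRNAs guide Argonaute proteins to messenger RNAs, mainly through the seed near their 5′ end, and lower the stability and translation of those messages. The let-7 family is among the most conserved miRNA families of animals and is known for restraining growth and proliferation through targets such as Ras genes, Myc and Hmga2. The RNA-binding protein LIN28 blocks the maturation of let-7 precursors. In T cells, let-7 miRNAs are known to be abundant in the naive state and to decline after stimulation of the T cell receptor. miR-98 carries another name but belongs to the same family by sequence.

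The mature sequences are shown because they define the family and because the members are near copies of each other, which bears on how an array tells them apart. They are RefSeq's mouse sequences (GRCm38.p6), 5′ to 3′, with the seed (bases 2 to 8) in capitals, and all 9 members were found there by name.
let-7a-5p: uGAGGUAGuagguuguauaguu
let-7b-5p: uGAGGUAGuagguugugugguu
let-7c-5p: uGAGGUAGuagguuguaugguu
let-7d-5p: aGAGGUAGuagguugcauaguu
let-7e-5p: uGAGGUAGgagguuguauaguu
let-7f-5p: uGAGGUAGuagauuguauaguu
let-7g-5p: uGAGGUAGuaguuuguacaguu
let-7i-5p: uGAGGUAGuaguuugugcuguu
miR-98-5p: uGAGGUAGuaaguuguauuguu

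All 9 were 22 bases long and shared 1 seed, so the family label held by sequence. Of the 1679 mature miRNA names in the RefSeq table, 11 had this seed. The other 2, let-7k and miR-1961, were not analysed here. Against let-7a-5p, with let-7a-5p's base first and positions counted from the 5′ end, let-7c-5p differed by A19G, let-7e-5p by U9G and let-7f-5p by G12A. let-7b-5p differed by A17G and A19G, let-7d-5p by U1A and U16C, let-7g-5p by G12U and U18C, and miR-98-5p by G11A and A19U. let-7i-5p was the farthest, with G12U, A17G, U18C and A19U. No substitution lay within the seed.

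The 9 mature sequences were found in 12 hairpins on 7 chromosomes of GRCm38.p6. let-7a-5p, let-7c-5p and let-7f-5p each occurred in 2 hairpins, so an array row for one of them cannot be assigned to a single locus. On chromosome 13, minus strand, lay Mirlet7d (chr13:48536012-48536114), Mirlet7f-1 (chr13:48537829-48537917) and Mirlet7a-1 (chr13:48538179-48538272), with 261 bases between Mirlet7f-1 and Mirlet7a-1. On chromosome 15, plus strand, Mirlet7c-2 (chr15:85706603-85706697) and Mirlet7b (chr15:85707319-85707403) lay 621 bases apart within the annotated bounds of the long non-coding RNA gene Lncppara. On chromosome X, plus strand, Mirlet7f-2 (chrX:151912346-151912428) and Mir98 (chrX:151913214-151913321) lay 785 bases apart within the bounds of Huwe1, a ubiquitin ligase gene. Mirlet7g (chr9:106178840-106178927, plus strand) lay within the bounds of Wdr82, and Mirlet7i (chr10:122985640-122985724, minus strand) had no other gene around it. Mirlet7e (chr17:17830352-17830444, plus strand) lay within Spaca6, 367 bases from Mir125a. Mirlet7c-1 (chr16:77599657-77599750, plus strand) lay 656 bases from Mir99a, and Mirlet7a-2 (chr9:41536716-41536811, plus strand) lay within the long non-coding RNA gene Mir100hg, 5211 bases from Mir100. Whether these hairpins lie in exons or introns of the enclosing genes was not assessed.

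The values are linear intensities in arbitrary units, and each is from 1 array, so none has an error and no test between tissues was possible. Precision is limited throughout by the number of arrays. The lamina propria array listed 378 rows, the lowest at 2.88, and the spleen array listed 516, the lowest at 1.39. The summed intensity was 182481 in lamina propria and 136232 in spleen. Only the 9 members have a miRNA name in the sources used here, so the T cell identity of the RNA, and miRNAs that mark epithelial, stromal or myeloid cells, were not checked. A brighter row does not mean a more abundant miRNA, since probes differ, so the members are ordered below by their ratio between tissues and not by their level.

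Most of the let-7 family was less bright in lamina propria CD4+ T cells than in splenic ones. All 9 members were lower there by some amount, beside 49.6% of the 353 shared rows. Of the 9, 8 were 2-fold lower or more, beside 25.8% of the shared rows, and 0 were 2-fold higher or more, beside 16.1%. The ninth, miR-98-5p, was nearly level. The 8 all lay in the upper 50% of shared rows by mean level, where 41.2% of 177 rows were 2-fold lower or more. Among the 79 of these with low accession numbers, a set described below, the share was 68.4%. The median log2 ratio of lamina propria to spleen over the 9 members was -1.91, or 3.76-fold lower in lamina propria. In bulk RNA, fewer cells that carry a miRNA and less of it per cell cannot be told apart.

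let-7a-5p (MIMAT0000521), the member whose sequence is shared by the hairpins Mirlet7a-1 and Mirlet7a-2, had an intensity of 196.28 in lamina propria and 703.07 in spleen. Its log2 ratio was -1.84, or 3.58-fold lower in lamina propria. let-7d-5p (MIMAT0000383), from a hairpin of the same chromosome 13 locus, had an intensity of 187.73 in lamina propria and 705.15 in spleen, a log2 ratio of -1.91. The ratios of these 2 members differed by 0.07 on the log2 scale. let-7g-5p (MIMAT0000121) had an intensity of 189.21 in lamina propria and 737.07 in spleen, a log2 ratio of -1.96. Its only hairpin, on chromosome 9, has no other miRNA hairpin within 10000 bases. These 3 ratios lay within 0.12 of each other on the log2 scale. Their hairpins lie on chromosomes 9 and 13, with those of let-7a-5p on both.

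let-7c-5p (MIMAT0000523) had the lowest ratio of the family, with an intensity of 125.11 in lamina propria and 582.42 in spleen. Its log2 ratio was -2.22, or 4.66-fold lower in lamina propria. let-7b-5p (MIMAT0000522), which shares the chromosome 15 locus and the A19G substitution with it, had an intensity of 56.83 in lamina propria and 244.37 in spleen, a log2 ratio of -2.10. The pair of chromosome 15 members differed by 0.11 in log2 ratio, or 1.08-fold. let-7e-5p (MIMAT0000524), the member encoded beside miR-125a, had an intensity of 9.10 in lamina propria and 40.38 in spleen, a log2 ratio of -2.15. In lamina propria it stood only 3.16 times above that array's lowest value, so its ratio rests on a dim signal.

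let-7f-5p and let-7i-5p differed least between the tissues among the 8 let-7 members. let-7f-5p (MIMAT0000525) had an intensity of 162.37 in lamina propria and 412.10 in spleen, a log2 ratio of -1.34, or 2.54-fold lower in lamina propria. let-7i-5p (MIMAT0000122), from a solitary hairpin on chromosome 10, had an intensity of 88.72 in lamina propria and 263.41 in spleen, a log2 ratio of -1.57. miR-98-5p (MIMAT0000545) had an intensity of 4.73 in lamina propria and 5.64 in spleen, a log2 ratio of -0.25, or 1.19-fold lower in lamina propria. These values were 1.64 times the lowest listed value in lamina propria and 4.06 times that in spleen, so miR-98-5p was dim in both tissues and its ratio says little.

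**Figure D1:**
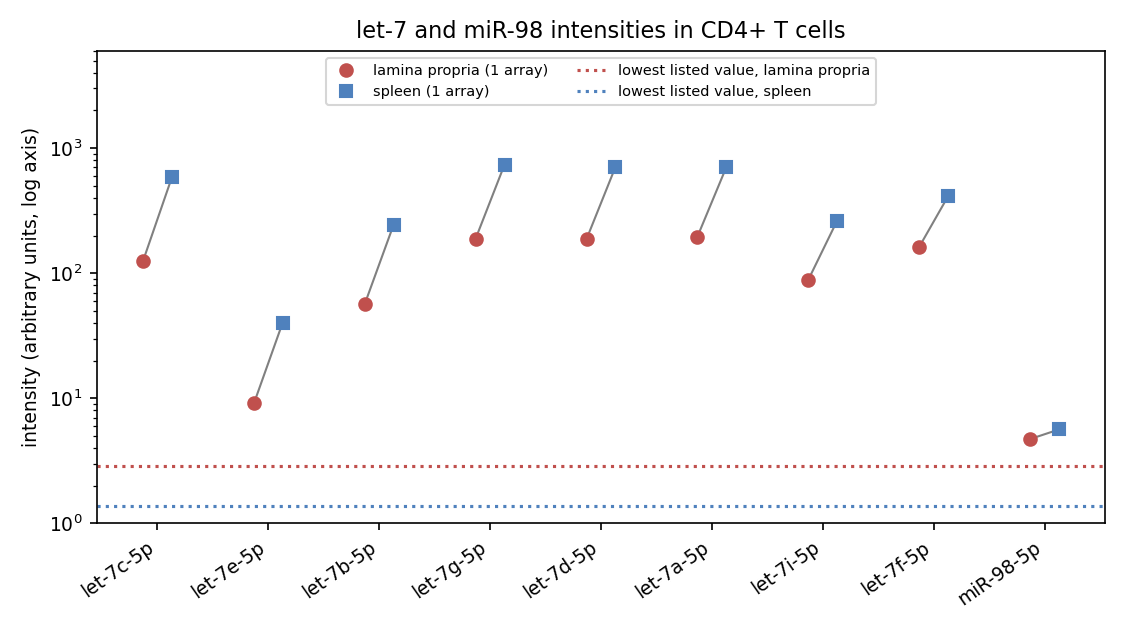
Intensity (arbitrary units, log axis) of each member in lamina propria (circles) and spleen (squares), 1 array each and so without error bars, with members ordered by ratio and dotted lines at the lowest listed values of 2.88 and 1.39. All 8 let-7 members were lower in lamina propria, between 2.54-fold and 4.66-fold. miR-98-5p was 1.64 times the lowest listed value in lamina propria and 4.06 times that in spleen.

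The let-7 members were compared with each other by their ratios. Without miR-98-5p, the log2 ratios ran from -2.22 to -1.34, a span of 0.88, or 1.83-fold. That span does not depend on a single scaling factor between the arrays, but it was wider under the scalings that change with level: 1.32 (2.50-fold) after quantile normalization and 1.17 (2.25-fold) after removal of the trend with level. In order of ratio, let-7c-5p, let-7e-5p, let-7b-5p, let-7g-5p, let-7d-5p and let-7a-5p followed each other with gaps of at most 0.14, then came let-7i-5p after a gap of 0.27 and let-7f-5p after one of 0.23. With no replicate, no pair of neighbours in this order can be said to differ. The difference from the family median was 0.57 for let-7f-5p and -0.31 for let-7c-5p. Accordingly, let-7f-5p made up 15.9% of the family's summed intensity in lamina propria and 11.2% in spleen, while let-7c-5p made up 12.3% in lamina propria and 15.8% in spleen.

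The summed intensity of the 9 rows was 1020 in lamina propria and 3694 in spleen, 3.62-fold lower in lamina propria. The family held 0.559% of all listed signal in lamina propria and 2.71% in spleen. The share is lower by more than the sum because the total signal was 1.34 times as high in lamina propria. A large part of each total came from 1 row, the brightest on both arrays. It had an intensity of 92004.4 in lamina propria and 45486.9 in spleen. The total ratio and these shares therefore depend strongly on that row and do not show a general rise of signal in lamina propria. miR-98-5p and let-7e-5p hardly entered these sums: without them the sum was 1006 in lamina propria and 3648 in spleen.

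The ratios were set against those of other rows. The upper 50% of shared rows by mean level over the 2 arrays, 177 rows, held 73 (41.2%) that were lower in lamina propria by 2-fold or more and 27 (15.3%) that were higher by as much. Lower by any amount were 61.6% of them. All 8 let-7 members lay in this set and all 8 were lower by 2-fold or more, while miR-98-5p was too dim for it. Their count was above the 41.2%, in which they are themselves counted, and above the 38.5% of the other 169 rows. Among the rows with low accession numbers, compared below, the share was 68.4%. At 4-fold, 3 members (let-7b-5p, let-7c-5p and let-7e-5p) were lower, beside 14.7% of the 177 rows. Under each of the 5 other scalings 0 members were 4-fold lower, and the share of the 177 rows was not counted there. The other 169 rows of the set had a median log2 ratio of -0.53, and the family median minus this was -1.38. The members were low within the set but not at its edge: 15 of the 177 rows had a lower ratio than let-7c-5p. A lower ratio than let-7f-5p was found for 63, the other let-7 members among them.

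**Figure D2:**
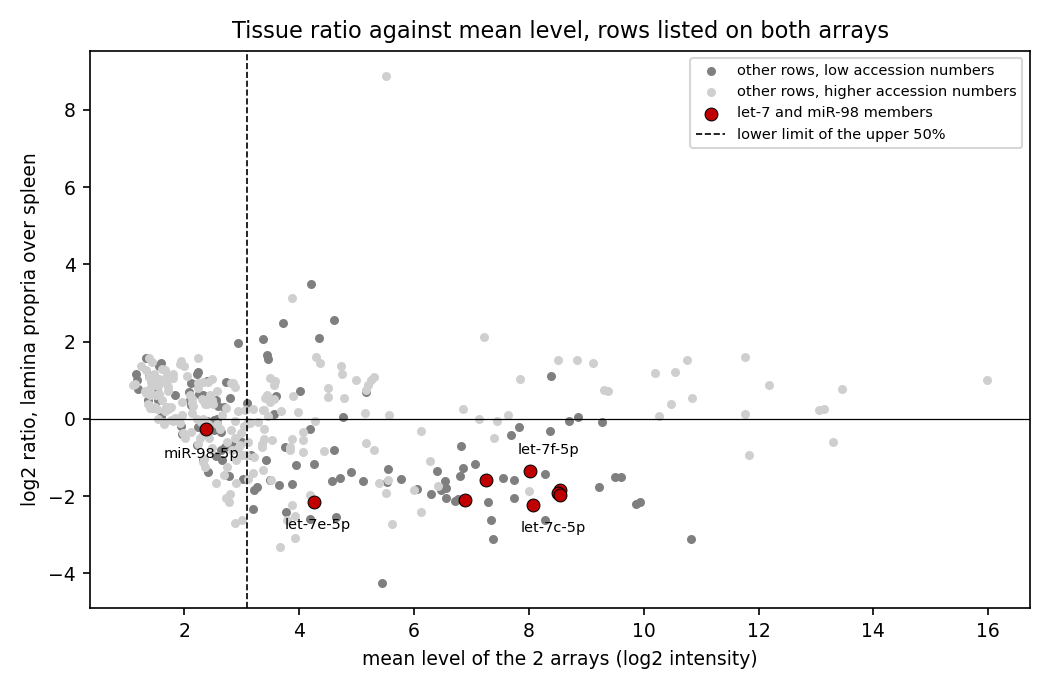
Log2 ratio of lamina propria over spleen (vertical axis) against the mean log2 intensity of the 2 arrays (horizontal axis) for the 353 rows listed on both, with the members as larger red points, 4 of them named. The 8 let-7 members lie right of the dashed line that bounds the upper 50%, between -2.22 and -1.34, and miR-98-5p lies left of it at -0.25.

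The miRNAs described early in the registry gave a closer comparison. All 9 members have low accession numbers, here those up to MIMAT0000904 (the next is MIMAT0001076), a limit chosen earlier from these same data. Low-numbered rows of the upper 50% numbered 79, the 8 let-7 members among them, and 54 (68.4%) were lower in lamina propria by 2-fold or more, beside 19.4% of the 98 rows with higher numbers. The other 71 low-numbered rows had a median log2 ratio of -1.50, and the family median minus this was -0.41, smaller in size than the span of the let-7 members. Of these 71 rows, 30 (42.3%) had a ratio between those of let-7c-5p and let-7f-5p. Lower signal in lamina propria was therefore shared by many early-described miRNAs, and no difference between the let-7 family and them was tested.

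**Figure D3:**
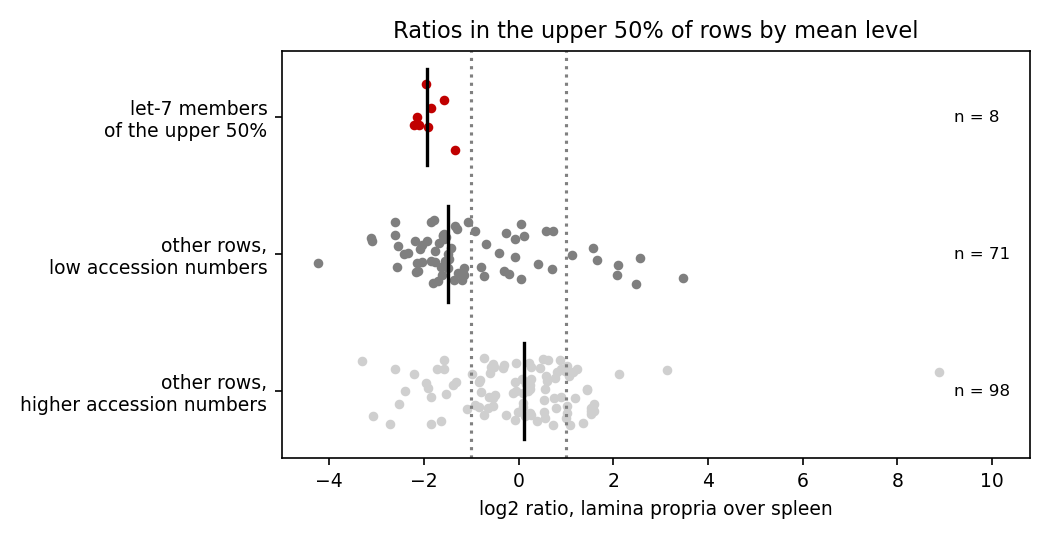
Log2 ratio of lamina propria over spleen for rows of the upper 50% by mean level, 1 point per row, for the 8 let-7 members, the other 71 low-numbered rows and the 98 rows with higher numbers, with black bars at the medians and dotted lines at 2-fold (vertical scatter has no meaning). The members lie inside the spread of the other low-numbered rows, whose median was -1.50, and below the median of the higher-numbered rows, 0.11.

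Rows of like brightness were also compared, a choice made after the values were seen. The 7 members other than let-7e-5p and miR-98-5p spanned a range of mean level that held 21 other rows, of which 10 (47.6%) were lower in lamina propria by 2-fold or more and 4 (19.0%) higher by as much. Their median log2 ratio was -0.50, beside -1.91 for the 7 members. Of the 21, 13 were low-numbered, and these had a median of -1.53, with 9 (69.2%) lower by 2-fold or more.

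The lower level of let-7 in lamina propria depended in size, but not in direction, on how the arrays were scaled. With the arrays brought to 1 median over the shared rows, every log2 ratio moved up by the same amount, and the family median became -1.48 with 7 members at least 2-fold lower, beside 33.9% of the 177 rows. After quantile normalization the family median was -1.04 and 5 members were at least 2-fold lower (let-7a-5p, let-7c-5p, let-7d-5p, let-7e-5p and let-7g-5p), beside 28.2%. After removal of the trend of ratio with level it was -1.17, with 6 members lower, beside 24.9%. let-7f-5p had the highest ratio of the 8 let-7 members on the deposited scale and in the 7 other settings plotted. Its log2 ratio was as high as -0.48 after quantile normalization. The lowest was let-7c-5p in 6 of these 8 settings. In the other 2, quantile normalization and removal of the trend, it was let-7e-5p. Scalings that add 1 constant to every log2 ratio, such as equal medians, keep the deposited order by construction. miR-98-5p changed sign with the scaling: its log2 ratio was 0.17 with medians set equal and -0.33 after quantile normalization.

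**Figure D4:**
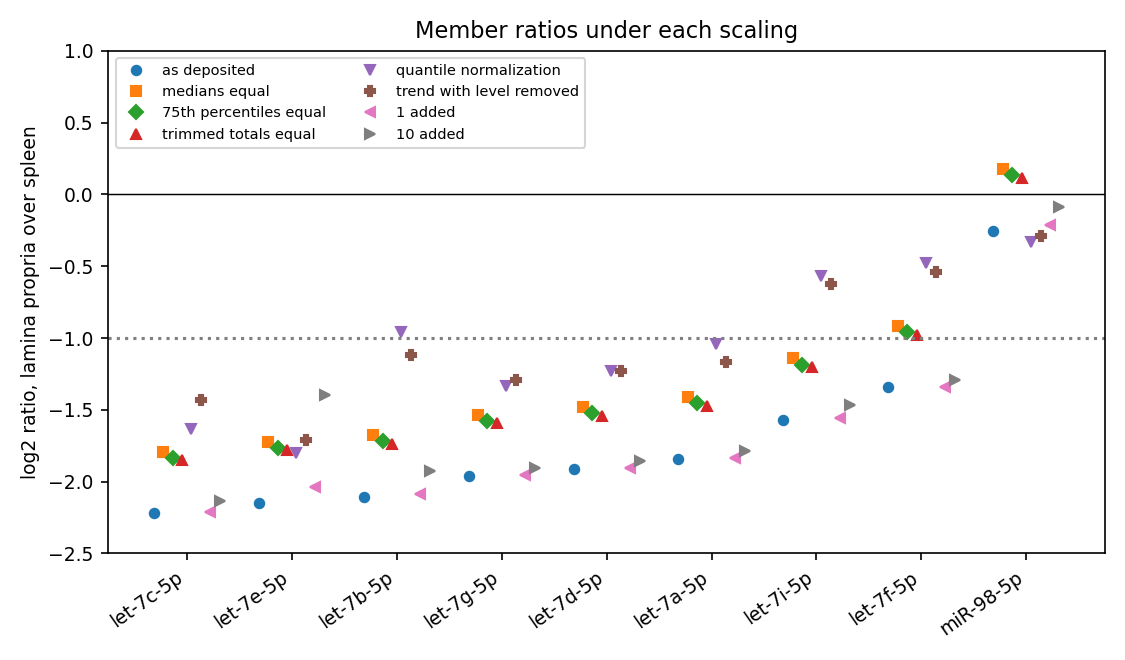
Log2 ratio of lamina propria over spleen of each member under 8 settings (symbols), with a solid line at 0 and a dotted line at 2-fold lower. The 8 let-7 members stay below 0 in all 8 settings, let-7b-5p, let-7f-5p and let-7i-5p lie above the 2-fold line in some, and miR-98-5p lies on both sides of 0.

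Position in the genome and sequence were set beside the ratios as descriptions. The 3 members of the chromosome 13 locus, let-7a-5p, let-7d-5p and let-7f-5p, spanned 0.57 in log2 ratio, or 1.48-fold, although let-7a-5p and let-7f-5p can also come from other hairpins. On chromosome X, let-7f-5p and miR-98-5p differed by 1.09 in log2 ratio, with miR-98-5p close to the lowest listed value in lamina propria. Among the 4 pairs of members that differ by 1 base, the log2 ratios differed by 0.11 to 0.50, with a median of 0.34. Over all 28 pairs of the 8 let-7 members the median was 0.29, and over all 36 pairs of the 9 members it was 0.38. The pair with 6 different bases, the most in the family, differed by 0.34. Probe sequences were not used here, and whether a probe also bound RNA of another member was not tested. As deposited, members with 9 or 10 guanines (let-7b-5p, let-7c-5p and let-7e-5p) had log2 ratios from -2.22 to -2.10. Those with 7 or 8 ranged from -1.96 to -0.25, a split made after the ratios were seen. The order did not hold within these groups: let-7g-5p, with 7 guanines, had a lower ratio than the 3 members with 8, and let-7b-5p, with 10, a higher one than both members with 9. The split itself held with constant scalings and with 1 added, but not in the other settings. Under quantile normalization let-7b-5p (-0.96) lay above let-7a-5p (-1.04), let-7d-5p (-1.23) and let-7g-5p (-1.33). Once the trend was taken out, let-7b-5p (-1.12) again lay above let-7a-5p (-1.17), let-7d-5p (-1.23) and let-7g-5p (-1.29). With 10 added, let-7e-5p (-1.40) lay above let-7i-5p (-1.47), let-7a-5p (-1.79), let-7d-5p (-1.85) and let-7g-5p (-1.91). Over the 8 let-7 members, guanine count and log2 ratio as deposited gave Pearson's r as -0.69 and Spearman's rho as -0.70. The same values were -0.66 and -0.57 for the count of guanine and cytosine, and 0.33 and 0.35 for that of uracil. Without the dim let-7e-5p, guanine count gave -0.65 and -0.64. Guanine count was chosen with the ratios in view, the 8 sequences are near copies, and all ratios come from the same 2 arrays.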

How the data were processed

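RNA of lamina propria and splenic CD4+ T cells was labelled with the dye Hy5 and hybridised to 1-colour miRNA arrays, 1 per tissue, per the labels' protocols. The authors deposited a linear intensity per row, in arbitrary units, blank where none is given. How they subtracted background, decided detection or scaled the arrays is not stated in the labels. Members were matched by accession, and 0 other rows could be named, so lists of passenger arms, cluster neighbours, comparison families and cell type markers were not applied. Ratios (log2, lamina propria over spleen) used the intensities as deposited, with no pseudocount. With 1 array per tissue no test was made. All 9 members are named by rule. The members and lists were chosen with earlier results of these data known. Alternatives were 5 scalings (a lowess fraction of 0.5 for the trend), 1 or 10 added before log2, 1 lowest value for both arrays, other folds and other sets of rows. Calculations used Python 3.11.15, numpy 2.4.6, pandas 2.3.3 and statsmodels 0.14.6, and the counting was tested on simulated data.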

Additional observations from a re-analysis of the deposited data

How the results depend on the processing

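As deposited, the family median log2 ratio was -1.91, the log2 ratio of summed intensity -1.86, and the family median minus that of the other rows of the upper 50% was -1.38. With medians, 75th percentiles or trimmed totals set equal, the family median became -1.48, -1.52 and -1.54, and the summed ratio -1.43, -1.47 and -1.49; these settings add 1 constant to every ratio, so the difference from other rows kept its value. After quantile normalization the 3 values were -1.04, -1.12 and -1.09, with 5 members at least 2-fold lower, and after trend removal -1.17, -1.11 and -1.09. With 1 and 10 added the family median was -1.90 and -1.79, and the difference -1.41 and -1.49. The difference was -1.38 with spleen values under the lowest lamina propria value left out. It was -1.97 against all shared rows, -1.16 against the upper 25% and -0.41 against low accession numbers alone. The summed ratio was -1.83 without the brightest member. At 4-fold, 3 members were lower as deposited and 0 under each of the 5 scalings, for which the share of all rows was not counted. The scalings at 4-fold were added after the data were seen. Added after the data were seen, leaving out miR-98-5p gave a median of -1.94 and a difference of -1.41. Also added then, the difference of the 7 brighter members was -1.41 against rows of like level and -0.38 against those of them with low numbers. miR-98-5p changed sign to 0.17, 0.13 and 0.11 with medians, 75th percentiles and trimmed totals set equal, which follows from the added constant. Of 64 values of the 8 let-7 members under the 8 alternatives run for each, 64 were below 0 and 56 at least 2-fold lower. These values are not independent. Leaving out spleen values under the lowest lamina propria value could not change a member ratio, since every member's spleen value was higher. Medians, 75th percentiles or trimmed totals set equal added only a constant. Of the 177 rows, 60, 62 and 63 were at least 2-fold lower under these constants, 50 after quantile normalization and 44 after trend removal. Of the 177 rows of the upper 50%, 27 were at least 2-fold higher as deposited. This count became 43 with equal medians, 41 with quantile normalization and 44 with the trend removed. The 73 lower became 44 after trend removal. Over all 353 shared rows, 57 (16.1%) were higher and 91 (25.8%) lower by as much, beside 15.3% and 41.2% of the 177. Apart from the constants, the cause of these changes was not tested. No paired analysis was possible because there is only 1 array for a tissue, which also leaves no replicate to omit. Lists fixed by name were not run because no accession outside the family could be named. The arrays' signal over background is unknown.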
